A study of Homo sapiens with 4 samples.

Results

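The replication-dependent histone genes were examined by RNAseq in IMR-32 cells, a long-established line from a human neuroblastoma in which MYCN is amplified. All 4 libraries came from cells stably carrying a doxycycline-inducible short hairpin RNA. In 2 libraries this was a control hairpin (shControl), and in 2 it was a hairpin against NeuroD1 (shNeuroD1). Doxycycline was given to both groups at 1 µg/mL for 48 h. The labels give the control cells the genotype WT and the series text calls them parental. The hairpin against NeuroD1 is not identified there, while column names in a table of the study give both knockdown libraries the hairpin shND1-2. The labels do not name separate cultures either, so the p-values below measure the spread between libraries, which may be technical. A member was any gene named by cluster (HIST1H, HIST2H, HIST3H or HIST4H, or H1-1 to H1-6, H2AC, H2BC, H2AW, H2BU, H3C or H4C in newer naming) that was not a pseudogene and had at least 10 counts over the 4 libraries. Of 88 rows with such a name among 60612 genes, 18 were pseudogenes and 27 fell below 10 counts, which left 43 members. HIST1H2AB (10 counts) and H3C2 (11 counts) lay just inside this limit, and HIST1H2BO (8 counts) and HIST1H1E (7 counts) just outside.

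Replication-dependent histone genes supply the core histones H2A, H2B, H3 and H4 and the linker histone H1 that package newly copied DNA in S phase. They lie in clusters of many near-identical copies, the largest (HIST1) on chromosome 6. Their usual mRNA has no intron and no poly(A) tail. It ends just after a short hairpin, the histone stem-loop, which is bound by SLBP and guides cleavage and translation. Some of these genes also give longer transcripts that run past the hairpin, or splice around it, and are polyadenylated. The labels name the molecule as polyA RNA, but their protocol names either a poly(A) isolation module or an rRNA removal kit. Poly(A) selection would leave the tailless form sparse and keep the longer form, and which of the kits was used is not given. Variant histones such as H3.3 come from separate, polyadenylated genes that are used outside S phase too.

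The stem-loops are shown because they mark where the tailless transcript ends. In GENCODE 29 transcripts, a hairpin with arms of 6 bases and a loop of 4 bases was found after the stop codon in 24 of the 26 members whose annotated transcript goes at least 40 bases past the stop. It began 22 to 56 bases after the stop codon. Its sequence took 6 forms, and 13 members carried the most common one. Windows of the sense strand are given 5′ to 3′ with the hairpin in capitals, for members that were higher, lower or not called in the comparison below.
HIST3H2A (chr1:228457364-228457389, minus strand): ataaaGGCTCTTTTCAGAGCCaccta
HIST2H2BE (chr1:149886183-149886208, minus strand): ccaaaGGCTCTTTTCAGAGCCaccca
HIST1H2BD (chr6:26158582-26158607, plus strand): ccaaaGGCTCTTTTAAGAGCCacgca
HIST1H2BH (chr6:26252050-26252075, plus strand): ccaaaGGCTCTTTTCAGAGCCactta
HIST1H3E (chr6:26225591-26225616, plus strand): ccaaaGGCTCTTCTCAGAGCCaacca
HIST4H4 (chr12:14770719-14770744, minus strand): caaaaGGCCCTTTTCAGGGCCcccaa
HIST1H4I (chr6:27139649-27139674, plus strand): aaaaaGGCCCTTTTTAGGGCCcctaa
Of the 43 members, 21 had an extended gene model, defined here as more than 200 annotated bases after the stop codon in at least 1 transcript. In 20 of these a transcript held the hairpin, which need not be the transcript with the longest end. In 14 of the 20 a polyadenylation signal (AATAAA or ATTAAA) followed the hairpin. Another 20 members had a short model, 15 of them with an annotation that ended at the stop codon itself. H3C2 and H3C3 were not in GENCODE 29 under the deposited identifiers. The counting used an annotation whose release is not given in the sources used here. It held both of these identifiers and so was not GENCODE 29, and the extended and short models described here may differ from the ones counted. HIST1H2BK, for example, is a model of 381 bases in GENCODE 29.

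The libraries held 14665210 to 16482463 counts. NEUROD1, the targeted gene, had 6174 and 6582 counts in the controls and 969 and 886 after knockdown, or 14.6% of the control level. The adrenergic neuroblastoma markers summed to 3913 to 4015 CPM (counts relative to the TMM-scaled library size) in the controls and 3549 to 3566 after knockdown, and all 8 were detected. Keratinocyte markers KRT5 and KRT14 and the T cell marker CD3E were at 0 in every library, and the blood cell list reached 0.378 to 0.611 CPM. Markers of mesenchymal or Schwann-like cells summed to 86.2 and 95.2 CPM in the controls and 62.6 and 61.9 after knockdown, with PRRX1 at 0. Fewer cells of a type and less RNA per cell cannot be told apart in these bulk libraries.

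Cluster histone RNA was a small part of each library. The 43 members together had 1095 and 1135 counts in the controls and 1185 and 1184 after knockdown. Their summed level was 72.9 ± 1.99 CPM (SD, n = 2) in the controls and 77.8 ± 0.0993 CPM (SD, n = 2) after knockdown. Without HIST3H2A the log2 ratio of this sum turned from 0.095 to -0.039, a gene left out after seeing the data. Single genes moved in opposite directions. Of the 24 members with enough counts to be tested, 3 fell and 6 rose after knockdown, and 15 did not pass (edgeR quasi-likelihood F test, adjusted p under 0.05 by Benjamini-Hochberg over 17537 genes). That is 12.5% lower against 28.2% of all genes tested, and 25% higher against 26.8%. With a log2 fold change beyond 1 in size as well, 3 were lower (all genes 5.14%) and 1 was higher (all genes 8.79%). Among these 24 the libraries of the groups did not overlap in 7 that were lower and 9 that were higher, against 37.7% and 38.4% of all genes tested. Over all 43 members, the sparse ones included, these counts were 20 lower and 9 higher. The share of all genes at this lower count limit was not computed, so these 2 counts have no background beside them. The median log2 fold change of the 24 was 0.40, and that of all genes was 0.0084. This median is of the members that passed the count filter alone, and with no filter the median over all 43 was -0.32.

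**Figure D1:**
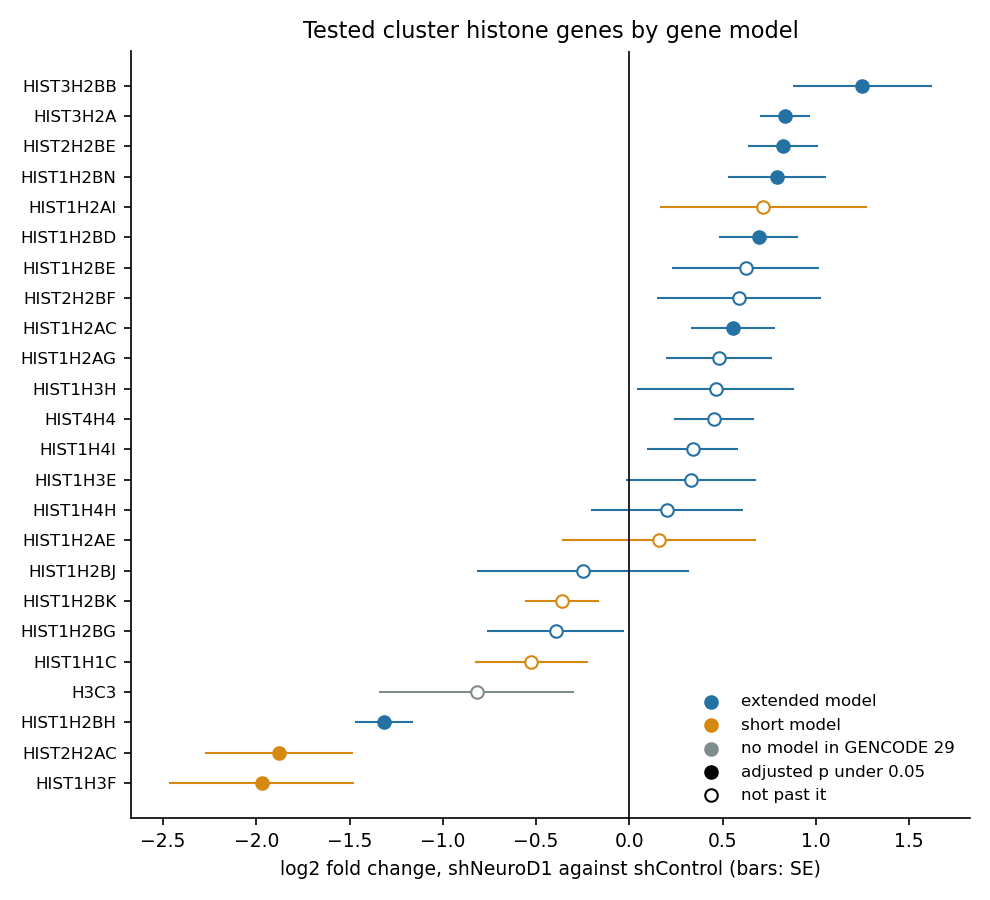
Log2 fold change (x axis, bars are SE) of the 24 tested cluster histone genes (y axis), coloured by the length of the GENCODE 29 gene model, with filled points past an adjusted p of 0.05. The 6 filled points on the right all have extended models, and 2 of the 3 on the left have short ones.

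The 3 members that fell were HIST1H3F, HIST2H2AC and HIST1H2BH. HIST1H3F (H3C7, ENSG00000277775, GRCh38 chr6:26250195-26250605, minus strand) encodes a replication-dependent H3. It had 26 and 18 counts in the controls and 5 and 6 after knockdown, so both knockdown libraries were below both controls. Its log2 fold change was -1.97 (edgeR, adjusted p 0.0011 and SE 0.496), or 24.9% of the control level in CPM. HIST2H2AC (H2AC20, ENSG00000184260, chr1:149886975-149887364, plus strand), an H2A gene of the HIST2 cluster, had 33 and 38 counts in the controls and 12 and 7 after knockdown. It fell by 1.88 on the log2 scale (edgeR, adjusted p 0.00015 and SE 0.395). Both genes have models that end at the stop codon. HIST1H2BH (H2BC9, ENSG00000275713, chr6:26251651-26253710, plus strand), an H2B gene, was the most abundant member in the controls with 189 and 184 counts and had 70 and 79 after knockdown. Its level went from 12.2 ± 0.874 to 4.89 ± 0.415 CPM (SD, n = 2 each), a log2 fold change of -1.32 (edgeR, adjusted p 1.5e-08 and SE 0.157). It was the 1 extended model among the falls. HIST1H3F and HIST1H2BH are neighbours on opposite strands whose models lie 1046 bases apart, a point made after their values were seen.

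The 6 members that rose were all H2A or H2B genes. Each had an extended gene model, and a hairpin in at least 1 of its transcripts. For HIST1H2BD the assembled longer transcript, given below, runs from a first exon that ends before the hairpin. HIST3H2A (H2AC25, ENSG00000181218, chr1:228456979-228457873, minus strand) had 114 and 146 counts in the controls and 242 and 219 after knockdown. Its level went from 8.46 ± 1.03 to 15.1 ± 1.08 CPM (SD, n = 2 each), a log2 fold change of 0.84 (edgeR, adjusted p 3.6e-06 and SE 0.135). It was the most abundant member after knockdown. HIST3H2BB (H2BC26, ENSG00000196890, chr1:228458107-228460470, plus strand), its neighbour in the HIST3 cluster, had 10 and 20 counts in the controls and 42 and 29 after knockdown. It rose by 1.25 on the log2 scale (edgeR, adjusted p 0.0052 and SE 0.373), the 1 rise beyond a log2 fold change of 1. HIST2H2BE (H2BC21, ENSG00000184678, chr1:149884459-149886652, minus strand) had 60 and 64 counts in the controls and 99 and 119 after knockdown. Its log2 fold change was 0.82 (edgeR, adjusted p 0.00041 and SE 0.188), and no knockdown library overlapped a control.

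The other 3 rises were in the HIST1 cluster. HIST1H2BN (H2BC15, ENSG00000233822, chr6:27837760-27865798) had 32 and 30 counts in the controls and 58 and 49 after knockdown, with a log2 fold change of 0.79 (edgeR adjusted p 0.012). Its long model spans HIST1H2AL on the same strand and HIST1H2AK on the other, so the share of reads that is its own is uncertain. HIST1H2BD (H2BC5, ENSG00000158373, chr6:26158146-26171349) had 62 and 51 counts against 105 and 77, a log2 fold change of 0.69 (edgeR adjusted p 0.0059). It overlaps the pseudogene LARP1P1 on its own strand and another gene on the opposite strand. HIST1H2AC (H2AC6, ENSG00000180573, chr6:26124145-26139116) had 45 and 52 counts against 60 and 82, a log2 fold change of 0.56 (edgeR adjusted p 0.036), the smallest rise that passed.

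**Figure D2:**
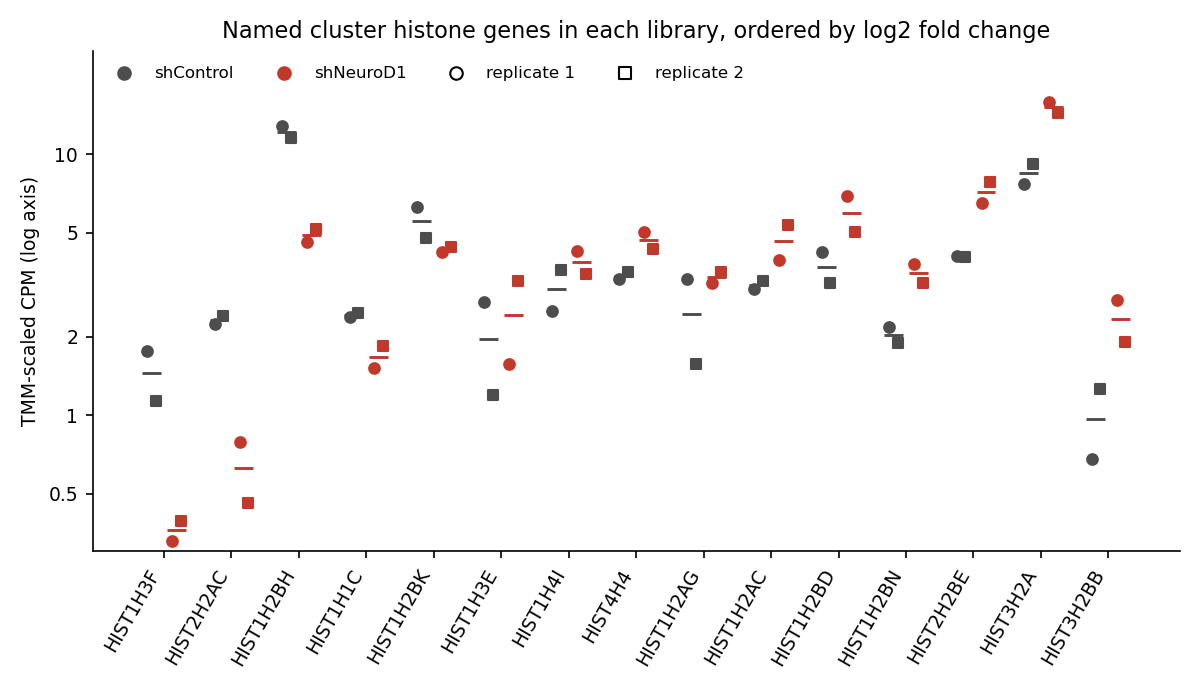
TMM-scaled CPM on a log axis (y) of 15 named cluster histone genes (x, ordered by log2 fold change) in each library, with circles for replicate 1, squares for replicate 2 and lines for group means. HIST1H2BH went from 12.2 to 4.89 CPM and HIST3H2A from 8.46 to 15.1 CPM, while HIST1H3E, HIST1H4I and HIST1H2AG had libraries of both groups overlapping.

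These calls rest on few counts. HIST1H2BH, HIST2H2AC and HIST3H2A were called in every fit that left out 1 library, and DESeq2 called these 3, HIST1H3F (adjusted p 0.0494) and HIST2H2BE (adjusted p 0.037), but not the other 4. Of the 6 rises, HIST3H2A alone still passed without shControl replicate 1 and without shControl replicate 2. Without shNeuroD1 replicate 1, 3 of the 6 passed, and without shNeuroD1 replicate 2, 5 passed. HIST1H3F missed the threshold without shControl replicate 1 (edgeR adjusted p 0.067).

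None of the H1 and H4 members that could be tested was called. These were the 1 H1 member and 3 of the 8 H4 members, and the other H4 members were too sparse for a test. HIST1H1C (H1-2, ENSG00000187837, chr6:26055787-26056428, minus strand) was the sole H1 gene of the clusters with at least 10 counts. It had 35 and 39 in the controls against 23 and 28 after knockdown. Its log2 fold change was -0.53 (edgeR, adjusted p 0.14 and SE 0.304), although the groups did not overlap. HIST4H4 (H4C16, ENSG00000197837, chr12:14767999-14771131, minus strand), the single gene of its locus, had 49 and 56 counts against 77 and 66, and a log2 fold change of 0.45 (edgeR, adjusted p 0.073 and SE 0.214). Under library size alone it passed, at 0.57 with an adjusted p of 0.025, and the median over all genes there was 0.12. HIST1H4I (ENSG00000276180) had 37 and 57 counts against 65 and 53, with overlapping groups and a log2 fold change of 0.34. HIST1H4H stood at 0.20.

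Of the H3 genes, HIST1H3F alone passed. HIST1H3E (ENSG00000274750) had 40 and 19 counts in the controls and 24 and 50 after knockdown. The spread between replicates was larger than the difference between the group means (log2 fold change 0.33, edgeR adjusted p 0.45). The sign of this log2 fold change turned when shControl replicate 2 (-0.17) or shNeuroD1 replicate 2 (-0.29) was left out. H3C3 stood at -0.82 (edgeR adjusted p 0.19) on 14 and 11 counts against 8 and 6, and HIST1H3H stood at 0.46. Summed over the 9 H3 members, the level was 8.41 and 6.55 CPM in the controls and 4.601 and 7.03 after knockdown, so the groups overlapped. The 11 H2A members summed to 19.1 and 19.7 CPM in the controls and 25.9 and 26.01 after knockdown. Without HIST3H2A, left out after seeing the data, the other 10 stood at 11.4 and 10.5 CPM in the controls and 9.99 and 11.6 after knockdown. The 14 H2B members showed almost no net difference, with 35.1 and 32.3 CPM in the controls and 34.1 and 33.0 after knockdown.

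Among the remaining H2A and H2B genes that were tested, none passed. HIST1H2BK (ENSG00000197903), an H2B gene among the most abundant members, had 93 and 76 counts in the controls and 64 and 67 after knockdown (log2 fold change -0.36, edgeR adjusted p 0.13). HIST1H2AG (ENSG00000196787) had 49 and 25 counts against 49 and 54, at 0.48 (edgeR adjusted p 0.15). Leaving out shControl replicate 2 gave 0.015, and leaving out shControl replicate 1 gave 1.09, which passed (edgeR adjusted p 0.043). HIST1H2AI (0.72), HIST1H2BE (0.62), HIST2H2BF (0.59) and HIST1H2AE (0.16) had positive log2 fold changes. HIST1H2BG (-0.40) and HIST1H2BJ (-0.25) had negative ones.

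Members were next summed by gene model. The 21 extended members summed to 54.3 and 52.6 CPM in the controls and 66.9 and 65.5 after knockdown, or 124% of the control level. Single genes weighed heavily in this sum, which was 149% without HIST1H2BH and 113% without HIST3H2A, both left out after seeing the data. The 20 short members went from 18.8 and 17.9 CPM in the controls to 10.4 and 11.7 after knockdown, or 60.1%. H3C2 and H3C3, without a model, had 56.4% of the control level. In the sums of extended and of short models the libraries of the groups did not overlap. Of 17 extended members tested, 6 were higher, 1 was lower and 10 were not called, with a median log2 fold change of 0.48. These 35.3% higher stand beside 26.8% of all genes. Of 6 short members tested, 2 were lower, none was higher and 4 were not called, with a median of -0.44, and these 33.3% lower stand beside 28.2% of all genes. The difference between the gene models itself was not tested, and a longer model also collects more reads and passes the filter more easily.

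**Figure D3:**
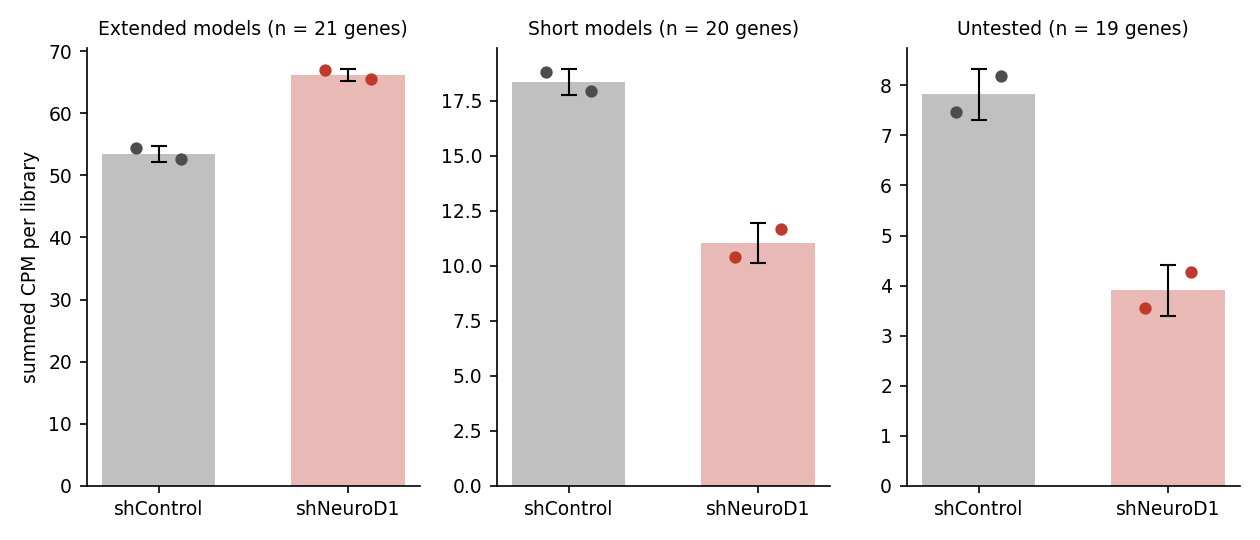
Summed CPM per library (y axis, a separate scale in each panel) for the 21 members with extended gene models, the 20 with short models and the 19 members that could not be tested, which are drawn from both kinds. Bars are means, error bars SD (n = 2) and points single libraries. The extended models rose from 53.5 to 66.2 CPM while the short models fell from 18.4 to 11.0 CPM.

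The 19 members too sparse to be tested had a lower summed level after knockdown. Their sum was 110 and 130 counts in the controls and 54 and 65 after knockdown, or 49.96% of the control level in CPM. The mean was lower after knockdown for 17 of them and higher for 2. The 2 were HIST1H2BL (3 and 1 counts against 1 and 7) and HIST2H3D (1 and 5 against 3 and 6). Other genes with such low counts were not compared. HIST1H4E had 8 and 12 counts against 3 and 0, HIST1H4D had 8 and 9 against 4 and 0, and HIST1H2AH had 7 and 9 against 2 and 0. HIST1H3I had 7 and 10 counts against 0 and 3, and HIST1H3J had 15 and 9 against 6 and 5. These 5 were chosen after their values were seen, and HIST1H3J overlaps HIST1H2AM on its own strand. 14 of the 19 have short models and 4 have extended ones. The 27 genes under the limit of 10 counts added 18 and 24 counts in the controls and 18 and 15 after knockdown.

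Many H2A and H2B genes lie head to head and share the stretch between their starts. Of 11 such pairs with starts less than 1000 bases apart, both genes were members in 8 and both were tested in 4. In 3 of the 4 the log2 fold changes had opposite signs, and the HIST2 pair was the one in which both genes passed in opposite directions. HIST2H2AC fell and HIST2H2BE rose from starts 323 bases apart. The ratio of HIST2H2AC to HIST2H2BE counts was 0.55 and 0.594 in the controls and 0.121 and 0.0588 after knockdown. The 2 groups of ratios did not overlap, although 2 libraries against 2 cannot give an exact permutation p below 0.333. In the HIST3 pair, with starts 234 bases apart, HIST3H2A and HIST3H2BB both rose. The ratio of HIST3H2BB to HIST3H2A counts was 0.0877 and 0.137 in the controls and 0.174 and 0.132 after knockdown, and here the groups overlapped. In the other 2 pairs tested, HIST1H2BG (-0.40) with HIST1H2AE (0.16) and HIST1H2BJ (-0.25) with HIST1H2AG (0.48), none of the log2 fold changes passed.

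The promoters of these 2 pairs are shown because 1 pair moved apart and the other together. They are the 300 bases from 250 before to 50 after the RefSeq start on GRCh38.p14, 5′ to 3′ on the strand of the named gene. Capitals mark the octamer ATTTGCAT (bound by POU2F1), CCAAT and TATAAA, each on either strand.
HIST2H2AC, plus strand (chr1:149886668-149886967): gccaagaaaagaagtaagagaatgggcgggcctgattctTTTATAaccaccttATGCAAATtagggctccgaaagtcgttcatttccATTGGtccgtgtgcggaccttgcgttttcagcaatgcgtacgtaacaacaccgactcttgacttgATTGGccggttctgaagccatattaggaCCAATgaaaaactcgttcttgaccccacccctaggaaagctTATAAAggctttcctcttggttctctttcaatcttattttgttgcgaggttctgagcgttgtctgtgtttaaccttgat
HIST3H2A, minus strand (chr1:228457824-228458123): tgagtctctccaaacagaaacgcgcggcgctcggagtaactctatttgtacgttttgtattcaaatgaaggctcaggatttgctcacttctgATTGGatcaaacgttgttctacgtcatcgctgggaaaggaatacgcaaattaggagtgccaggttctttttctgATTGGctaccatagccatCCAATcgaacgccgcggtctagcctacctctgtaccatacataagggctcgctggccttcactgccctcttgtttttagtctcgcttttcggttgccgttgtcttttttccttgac
The HIST2 stretch held 1 octamer, 3 CCAAT and 2 TATAAA matches, and the HIST3 stretch held 3 CCAAT matches and neither of the others. Of 39 members matched in the promoter table, 46.2% had the octamer, against 1.77% of 35116 promoters in all. It was present in 8 of 10 H2A and 10 of 14 H2B promoters and in none of the H1, H3 and H4 promoters. CCAAT was found in 84.6% of member promoters (34.6% of all), TATAAA in 66.7% (11.5% of all) and the E2F motif TTTCGCGC in 28.2% (0.515% of all). Genes that lie head to head, such as HIST2H2AC and HIST2H2BE, have overlapping promoter stretches. The same site can thus be counted for both genes, and the member promoters are not independent. NeuroD1 is a basic helix-loop-helix factor that binds E-boxes. The E-box CAGATG was in 6 of 39 member promoters (15.4%) and in 5161 of the 35116 in all, and CAGCTG was in 12.8% of members and 17.9% of all. A match is a description of the letters and not a bound site.

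Assembled transcripts gave a second view of the longer forms. The deposited FPKM tables list transcript ends of 4 members, all past the hairpin. HIST1H2AC had an end reaching 14413 bases beyond its stem-loop window, at 0.899 and 1.42 FPKM in the controls and 1.59 and 2.38 after knockdown. The groups did not overlap at this end. HIST1H2BD had one 12742 bases beyond, at 3.18 and 1.26 FPKM in the controls and 4.77 and 2.15 after knockdown, with overlapping groups. The HIST1H2BD start listed in all 4 libraries (chr6:26158146-26158559) ends before the stem-loop window, so this form passes the hairpin on the genome without containing it. The distances of HIST1H2AC and HIST1H2BD are counted on the genome, introns included. HIST1H3E ended 1857 bases beyond, at 0.280 and 0.0480 FPKM against 0.244 and 0.913. For HIST1H2BH an end 9574 bases beyond, also on the genome, was listed in shControl replicate 1 alone, at 6.09 FPKM. This end (chr6:26261372-26261649) lies past the annotated gene end at 26253710. The start listed with it ends at 26252143, so the distance need not be a continuous transcript. These tables list events above 0 only. Transcript starts, which limma used, were listed for HIST1H2AC, HIST1H2AL, HIST1H2BD, HIST1H2BE, HIST1H2BH and HIST1H3E alone. A library without a listed start was set to 0, as for HIST1H2BH outside shControl replicate 1. Limma on log2(FPKM + 1) called none of the members it could test, and most members called on counts have no value there.

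Genes that read, process and replace cluster histones were compared next. Of 12 variant histone genes 10 were tested, and these 10 fell (median -0.55 on the log2 scale), against 28.2% lower among all genes tested. H2AX, the variant phosphorylated at DNA breaks, had a log2 fold change of -1.32 (edgeR adjusted p 1.7e-18), and H2AZ1, found at promoters, one of -1.03 (edgeR adjusted p 1.5e-19). H3-3B, which encodes H3.3, had 29247 and 30217 counts in the controls and 18103 and 18008 after knockdown. Per kb of exon, cluster H3 genes made up 1.96% to 2.86% of the CPM of H3 genes and variants in the 4 libraries. For H2A this share was 5.38% and 6.07% in the controls and 10.6% and 10.1% after knockdown. Cluster H2A itself stood at 24.4 and 26.7 CPM per kb in the controls and 28.0 and 26.9 after knockdown, while H2A variants went from 429.7 and 412.7 to 235.8 and 239.8. These shares depend on the GENCODE 29 lengths. They also depend on how the RNA was selected, since poly(A) selection would leave tailless cluster transcripts sparse, so they are not shares of the RNA in the cells.

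Of 19 genes for histone gene transcription and RNA processing, 13 were lower, none was higher and 6 did not pass, with a median log2 fold change of -0.30. None was beyond a log2 fold change of 1. These 68.4% lower stand beside 28.2% of all genes tested, and none higher beside 26.8%. SLBP, which binds the stem-loop, went from 87.8 ± 6.75 to 58.2 ± 3.58 CPM (SD, n = 2 each), a log2 fold change of -0.59 (edgeR, adjusted p 1.2e-09 and SE 0.0626). NPAT, the coactivator that switches on histone clusters in S phase, had a log2 fold change of -0.77 (edgeR, adjusted p 4.5e-11 and SE 0.0698). Of 20 histone chaperones and related genes, 16 were lower, 3 were higher and 1 did not pass, with a median of -0.50. That is 80% lower against 28.2% of all genes tested, and 15% higher against 26.8%. The falls included the CAF-1 subunits CHAF1A (-1.43) and CHAF1B (-1.13), which load H3 and H4 behind the replication fork, ASF1B (-1.20), which hands H3 and H4 to them, HAT1 (-1.21), which acetylates new H4, MMS22L (-1.26), which acts at damaged forks, and HJURP (-1.31), which loads the centromere variant CENPA. In limma on log2(FPKM + 1) CHAF1B (adjusted p 0.062), MMS22L (0.13), NPAT (0.24) and SLBP (0.063) no longer passed.

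The S phase list had the lowest median of the 4 lists, with 41 of 43 genes lower, 1 higher and 1 not passing, and a median log2 fold change of -1.19. That is 95.3% lower against 28.2% of all genes tested. CASP8AP2, CHAF1B, NASP and SLBP stand in this list and in the lists above. The part of the S phase shift in the levels of the cluster histones was not tested.

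**Figure D4:**
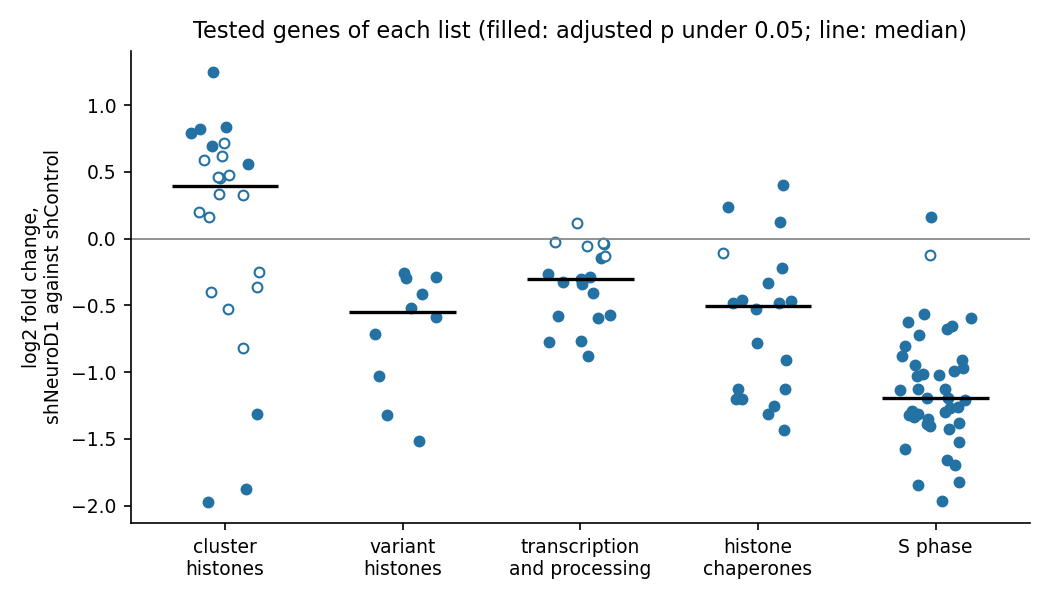
Log2 fold change (y axis) of each tested gene in 5 lists (x axis), with filled points past an adjusted p of 0.05 and lines at the medians. The cluster histones spread from -1.97 to 1.25 around a median of 0.40, while the medians of the other lists lie between -1.19 and -0.30.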

How the data were processed

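RNAseq was analysed for 2 shControl and 2 shNeuroD1 libraries, grouped by the sample titles. The authors deposited raw counts per Ensembl gene made with HTSeq, and the submitters' processing notes name cutadapt 1.9.1, HISAT2 2.0.1, HTSeq 0.6.1, DESeq2 and hg38. The annotation release and the use of strand are not given in the sources used here, so reads of overlapping genes, and of near-identical histone copies, cannot be assigned with certainty. They also deposited, per library, FPKM values of transcript starts, ends and splicing events above 0, made with a tool that is not given in the sources used here.

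Counts were compared in edgeR 4.0.16 (R 4.3.3) with filterByExpr (minimum count 10), TMM scaling and the two-sided quasi-likelihood F test, adjusted by Benjamini-Hochberg over 17537 genes. The SE is the log2 fold change divided by the square root of F. CPM values are TMM-scaled. The total of 14665210 to 16482463 counts per library leaves most members with under 100 counts, and intervals were not computed. Gene models, positions and hairpins are from GENCODE 29 on GRCh38, and promoters from RefSeq, where 39 of 43 members matched. A hairpin was searched in transcripts whose reading frame lies in 1 exon. Alternatives were DESeq2 1.42.0 (Wald test), its size factors in edgeR, library size alone, no count filter, a mean of at least 1 CPM, the replicate number as a block, leaving out each library and, for named genes with rows there, limma 3.58.1 on FPKM of transcript starts summed per gene, as log2(FPKM + 1) and log2(FPKM + 0.1) with a minimum mean of 1 FPKM or no minimum. With 1 library left in a group, it was assumed to vary like the other group. The S phase list is from Seurat 5.3.0. The fit was tested on simulated data.

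Members, lists and the split by gene model were chosen with earlier results of these data known. Genes named by rule are NEUROD1, the 12 tested members with the highest mean CPM, the 6 largest falls and 6 largest rises past an adjusted p of 0.05, tested H1, HIST3 and HIST4 members, up to 6 genes past both thresholds in each companion list apart from S phase, and SLBP and NPAT. One gene that the rule names is not reported here. All other members are named to account for them. The sums without HIST1H2BH or HIST3H2A were added after seeing the data.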

Additional observations from a re-analysis of the deposited data

Results flagged for a closer look

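Signal outside the members came from 2 transcribed pseudogenes of the HIST2 cluster, which the naming rule leaves out. HIST2H2BC (ENSG00000261716, chr1:149844498-149850937, minus strand) had 102 and 124 counts in the controls and 273 and 258 after knockdown, a log2 fold change of 1.24 (SE 0.132, n = 2 per group). HIST2H2BD (ENSG00000220323, chr1:149842875-149846486, plus strand) had 31 and 28 counts in the controls and 78 and 84 after knockdown, a log2 fold change of 1.46 (SE 0.239, n = 2 per group). They were flagged because no comparison of the members used these rows. In both pseudogenes the knockdown libraries were above both controls, which held for 38.4% of all genes tested. A rise past both thresholds was seen in 8.79% of all genes tested. Both passed an adjusted p of 0.05 in edgeR and in every fit that left out 1 library, and in DESeq2 (adjusted p 0.0017 for HIST2H2BD). The models overlap each other on opposite strands, so their reads cannot be told apart unless the counting used strand.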

How the results depend on the processing

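The count of higher members depended on the tool and on single libraries. DESeq2 called 2 against 6, with 0 against 1 past both thresholds, and leaving out a library gave 1 to 5, and 0 to 1 past both. Without a library 2 to 4 members were lower, by either rule. The median of the tested members was 0.51 under library size alone and 0.47 with a mean of at least 1 CPM. It turned negative with no filter on low counts (-0.32) and in DESeq2 (-0.33), which both bring in all 43 members, and was 0.13 to 0.41 without a library. Limma on FPKM called none of the few members it could test. Most members, also among those called on counts, have no FPKM row and so no value there.

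The summed level had a log2 ratio of 0.095 as reported, 0.21 with library size alone, 0.27 without HIST1H2BH and -0.039 without HIST3H2A (both chosen after seeing the data) and 0.067 to 0.12 without a library. In the lists, the count of higher genes was 1 for transcription and processing under library size alone against 0, and 0 for S phase with no filter on low counts and in DESeq2 against 1. Leaving out a library gave 0 to 1 for S phase. HIST1H3E ranged from -0.29 (without shNeuroD1 replicate 2) to 1.01 (without shControl replicate 1), and was -0.17 without shControl replicate 2. NEUROD1 was -2.84 to -2.71 without a library.

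Deviations from the group means barely correlated between libraries of the same number (0.019 over genes). With 2 libraries per group, this value cannot tell whether libraries of the same number shared a culture or batch. Adding the replicate block, 3 members were lower and 6 higher, and the median was 0.40. Outside leave-one-out fits, 162 of 192 values of 26 named genes kept direction and side of the threshold, 29 were weaker and 1 was stronger. At this depth a call can change when 1 library is left out, also for HIST2H2BE with 60 to 119 counts per library (edgeR adjusted p up to 0.059).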
